A study of Mus musculus with 12 samples.

Results

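The collagen chain genes of the mouse were followed across 11 RNA-seq libraries labelled as embryo. Every gene symbol of the form Col, a number, a and a number was taken, which gave 44 genes of 36255 in the count table, whatever their level. They comprised 11 fibrillar chains, 6 chains of basement membrane type IV collagen and 27 chains of other types. The libraries fell into 6 groups: wild type (wt) at 9.0 dpc (days post coitum), wt at 9.5 dpc, wt at 9.5 dpc with the mark PI, and, all at 9.5 dpc, Skp1acont, Skp1aKO and Skp1acont PI. Each group had 2 libraries except Skp1acont PI, with 1. The labels do not spell out PI, cont, the mb in every sample title or the lot numbers that mark the replicates, name no Cre line or promoter for the Skp1a alleles, and do not say whether replicates came from separate embryos or pools, which leaves p-values as measures of the variation among these samples alone, possibly technical. The growth protocol and the series' design text name embryonic stem cells or embryoid bodies, whereas every sample is labelled embryo. Whether whole embryos or a dissected part were used is therefore not known here.

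Collagens are secreted proteins built from 3 intertwined alpha chains, each chain from its own gene. Fibrillar collagens (types I, II, III, V, XI) assemble into the cross-linked fibrils that give connective tissue its tensile strength, and type V and XI chains help to start and size those fibrils. Type IV collagen forms the sheet-like scaffold of basement membranes, with the chains of Col4a1 and Col4a2 combining in nearly all of them. In the mid-gestation embryo, fibrillar collagens mark loose mesenchyme and vessel walls, and type II marks notochord and early cartilage. FACIT collagens (such as types IX, XII and XIV) attach to fibril surfaces, type VI forms beaded filaments, and multiplexins (XV and XVIII) sit at basement membranes.

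Total counts per library ran from 2320599 to 11607085, so that 3 counts, taken as the floor of detection, corresponded to 0.323 to 1.10 CPM (read counts scaled to library size, here by the TMM method). Skp1a itself stood at 930.2 to 1337 CPM in the 6 wt libraries, at 303 and 104 in those labelled Skp1acont, 273 in Skp1acont PI, and 199 and 212 in those labelled Skp1aKO. The knockout-labelled libraries therefore lay between the 2 control-labelled ones, and directions between these labels are given for libraries as labelled. A background rate was read from 1494 chemoreceptor genes as their median CPM per kb of exon. It was 1 to 1.73 times the lowest library in the wt libraries, 3.04 and 14.4 times in Skp1acont replicates 1 and 2, 3.22 times in Skp1acont PI, and 7.03 and 9.18 times in Skp1aKO. Skp1acont replicate 2, the shallowest library, stood apart, and the Skp1acont values of the genes discussed are given with and without it.

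Collagen transcripts were a small share of each library: 0.0283% and 0.0288% of counts in wt 9.0 dpc, 0.0622% and 0.0678% in wt 9.5 dpc, 0.0464% and 0.0492% in wt PI, and 0.0692% to 0.0765% in the 5 libraries with a Skp1a label. The order depended on the scaling: in summed TMM-scaled CPM the Skp1a-labelled libraries had 510 to 563, against 776 and 844 in wt 9.5 dpc, 558 and 616 in wt PI and 389 and 399 in wt 9.0 dpc. Col3a1, the single chain of type III collagen, had the highest level per kb of exon of all 44 in every group, from 7.32 CPM per kb in Skp1acont to 34.7 in wt 9.5 dpc. It alone made up 41.4% and 42.7% of all collagen counts in wt 9.5 dpc, 22.3% and 22.7% in wt 9.0 dpc, and 9.52% to 19.5% in the Skp1a-labelled libraries. Behind it in wt 9.5 dpc came Col1a2 at 6.83 CPM per kb, Col4a5 at 5.76, Col18a1 at 5.34 and Col4a1 at 5.18. Neighbours in this order were close: Col4a1 alone measured 38.7 ± 7.62 CPM (SD, n = 2). In wt 9.0 dpc the second place belonged to Col18a1, the type XVIII chain whose C-terminal fragment is endostatin, at 5.45 CPM per kb, followed by Col2a1 of cartilage collagen at 3.56. At the other end, 20 of the 44 genes stayed under 2 CPM in every wt library. They were Col5a3, Col11a2, Col4a4, Col9a2, Col14a1, Col16a1, Col19a1, Col20a1, Col6a2, Col6a4, Col6a5, Col6a6, Col7a1, Col8a1, Col8a2, Col10a1, Col15a1, Col13a1, Col17a1 and Col28a1. These include the anchoring fibril chain of skin (Col7a1), the chain of hypertrophic cartilage (Col10a1) and the hemidesmosome chain (Col17a1).

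**Figure D1:**
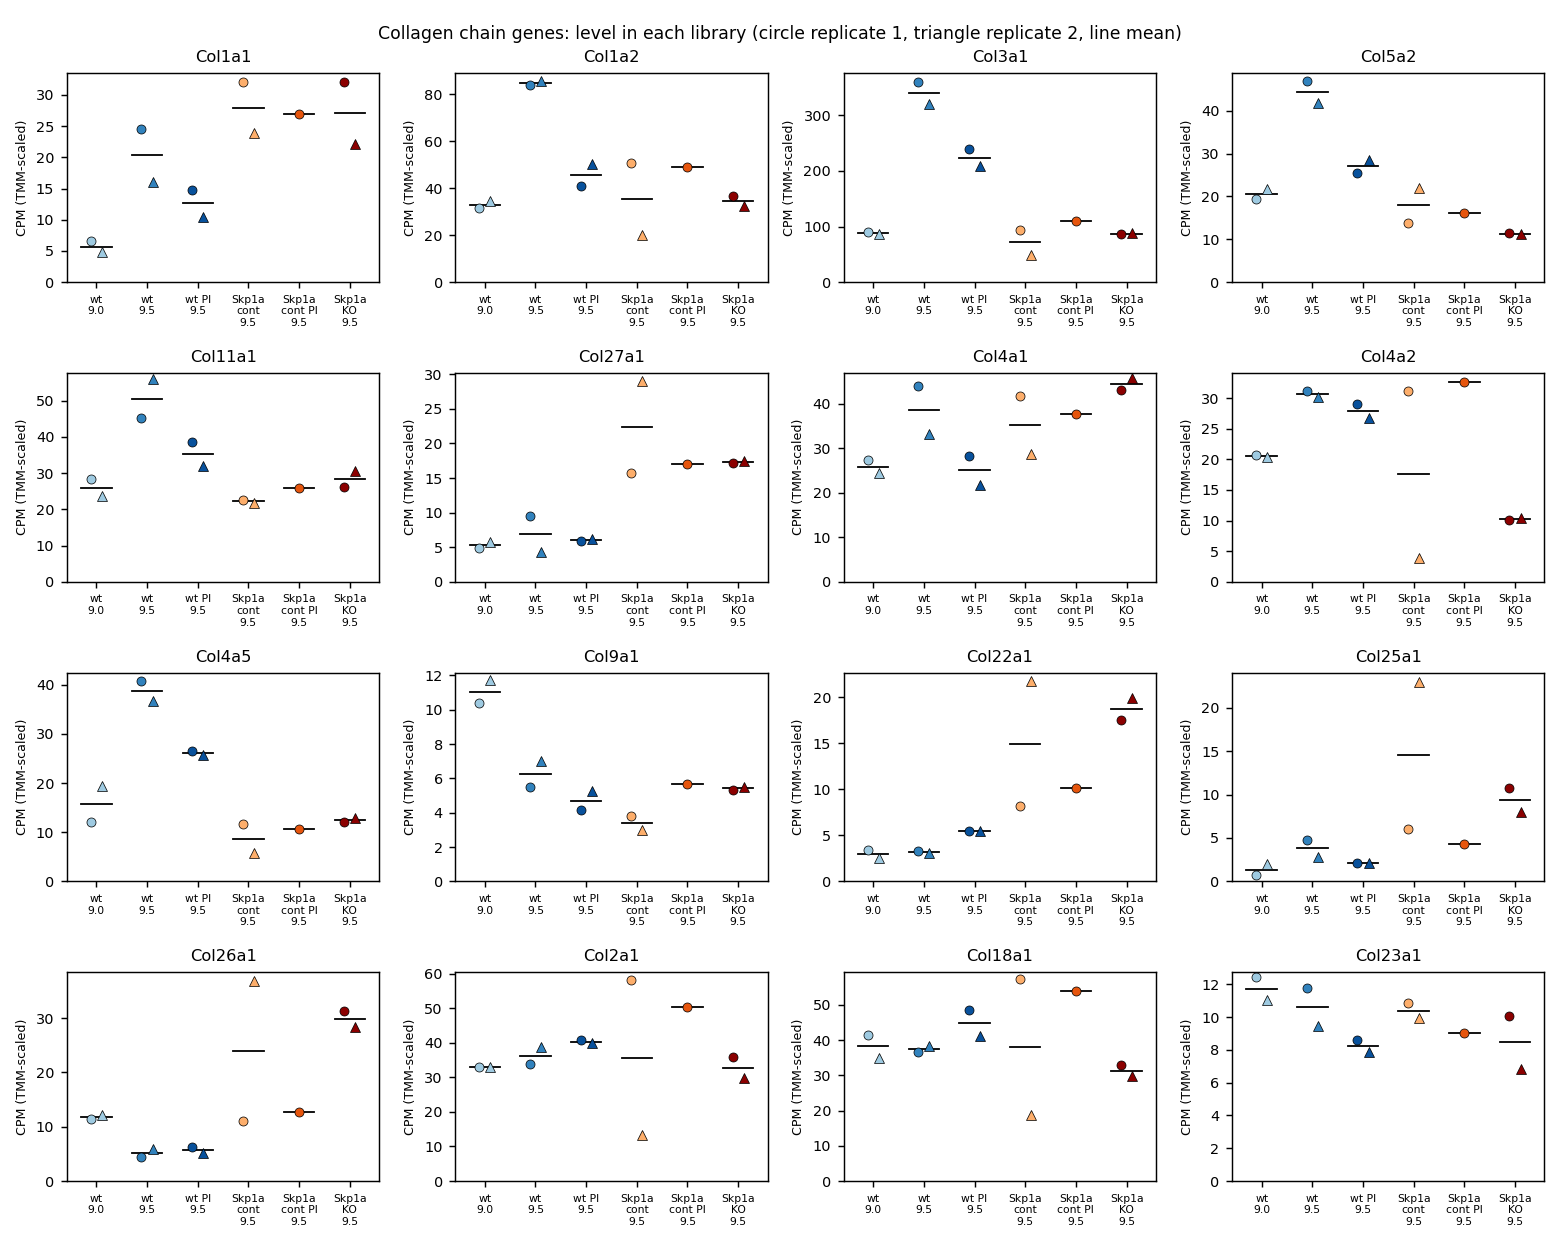
Level of 16 collagen chain genes in each library, in TMM-scaled CPM (y axis, linear, from 0) by group (x axis, numbers are dpc); circles are replicate 1, triangles replicate 2, lines the group mean. Col3a1, Col1a2, Col5a2, Col11a1 and Col4a5 peak in wt 9.5 dpc, whereas Col22a1, Col26a1 and Col27a1 have their highest points in libraries with a Skp1a label.

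The first comparison asked how collagen expression differed between wt embryos at 9.0 and 9.5 dpc. Of the collagen genes, 5 fibrillar chains, 3 type IV chains and Col6a3 rose to 9.5 dpc, and Col9a1 and Col26a1 fell. These were 9 higher and 2 lower among the 23 that passed the low-count filter, where 31.7% of all 13126 genes tested changed, 15.0% upward and 16.7% downward (edgeR quasi-likelihood test, adjusted p under 0.05). The other 21 collagen genes did not pass the filter. The median log2 fold change was 0.49 over the 23 and -0.02 over all genes. In bulk RNA, more cells of a type and more RNA per cell cannot be told apart.

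Of the 9 fibrillar genes tested, 5 rose and none fell, with a median of 1.01. Col3a1 measured 90.6 and 86.6 CPM at 9.0 dpc and 360.5 and 321 CPM at 9.5 dpc. That is a 3.93-fold rise (log2 fold change 1.98, SE 0.12, edgeR adjusted p = 5.25e-06), and the groups did not overlap. Col1a1 and Col1a2 encode the 2 kinds of chain in type I collagen, the main protein of bone and tendon. Col1a1 was at 6.57 and 4.74 CPM and then at 24.6 and 16.1 CPM (log2 fold change 1.90, SE 0.31). Col1a2 was at 31.5 and 34.4 CPM and then at 84.1 and 85.8 CPM (1.39, SE 0.13). The type V chain Col5a2, whose gene neighbours Col3a1 on chromosome 1, was at 19.4 and 21.8 CPM and then at 46.98 and 41.8 CPM (1.12, SE 0.14). Col11a1, a fibril-nucleating type XI chain, was at 28.4 and 23.6 CPM and then at 45.1 and 56.0 CPM (1.01, SE 0.15). In each of these 5 genes both 9.5 dpc libraries lay above both 9.0 dpc libraries. The genes were picked by the test on the same libraries, so such order, here and below, describes the calls and adds no support. Col2a1 had 32.9 CPM in both 9.0 dpc libraries and 33.8 and 38.7 CPM at 9.5 dpc (0.17, SE 0.12, adjusted p = 0.305 by edgeR) and did not pass the test, nor did Col5a1 (0.49, SE 0.20), Col27a1 or Col24a1. Col3a1 lies at chr1:45311538-45349706 and Col5a2 at chr1:45374321-45503282 on opposite strands, Col1a1 at chr11:94936224-94953042 and Col1a2 at chr6:4504814-4541544 (GRCm38, GENCODE).

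Among the type IV chains, 3 of 5 tested rose. Col4a5, the X-linked chain altered in Alport syndrome, went from 12.1 and 19.3 CPM to 40.7 and 36.7 CPM (log2 fold change 1.28, SE 0.20). Col4a1 went from 27.3 and 24.4 CPM to 44.0 and 33.3 CPM (0.61, SE 0.19), and Col4a2 from 20.8 and 20.4 CPM to 31.2 and 30.2 CPM (0.61, SE 0.13). The 2 genes of this pair had the same fold change, and in all 3 rising genes the groups did not overlap. Col4a6, which shares the Col4a5 locus, gave 6.92 and 8.42 CPM and then 4.04 and 8.93 CPM and did not pass the test, nor did Col4a3. Counts of Col4a5 made up 63.6% and 69.7% of the Col4a5 and Col4a6 sum at 9.0 dpc and 91.0% and 80.4% at 9.5 dpc. The exact 95% binomial intervals were 49.6% to 76.2%, 63.3% to 75.5%, 84.4% to 95.4% and 75.8% to 84.5%, for counting error only. The shares did not overlap between the stages, but the first and the last of these intervals did.

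Of the 9 tested genes of other types, 1 rose and 2 fell, with a median of 0.19. Col6a3, the large chain of beaded-filament collagen VI, had 2 and 8 counts (0.692 and 0.948 CPM) at 9.0 dpc and 13 and 23 counts (4.77 and 3.11 CPM) at 9.5 dpc (log2 fold change 2.11, SE 0.50). At 9.0 dpc this gene was under the background rate. Col26a1 fell from 11.4 and 12.1 CPM to 4.40 and 5.82 CPM (-1.13, SE 0.24). The FACIT chain Col9a1, a partner of type II fibrils, fell from 10.4 and 11.7 CPM to 5.51 and 7.03 CPM (-0.77, SE 0.24). Both genes were lower in each 9.5 dpc library than in either 9.0 dpc library. Col18a1 had 41.5 and 34.96 CPM, then 36.7 and 38.3 CPM, and Col23a1, a transmembrane collagen, 12.5 and 11.02 CPM, then 11.7 and 9.47 CPM. In both the groups overlapped, and neither passed the test, nor did Col12a1, Col22a1, Col25a1 or Col6a1. The same 11 genes were called with the lot number as a block, where 41.7% of all genes were (18.8% higher, 22.8% lower). With library totals Col5a1 was added as higher and Col9a1 was not called, where 3779 of 13126 genes were called, 2417 of them higher. Over 11 alternatives Col1a1 and Col3a1 kept their calls in all, Col4a1 in 6 and Col9a1 in 3, the fewest. With the spread taken from all 6 groups the count fell to 2, Col1a1 and Col3a1, where 302 of 18837 genes were called. It was also lower with DESeq2 and with any single replicate of the compared groups left out.

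**Figure D2:**
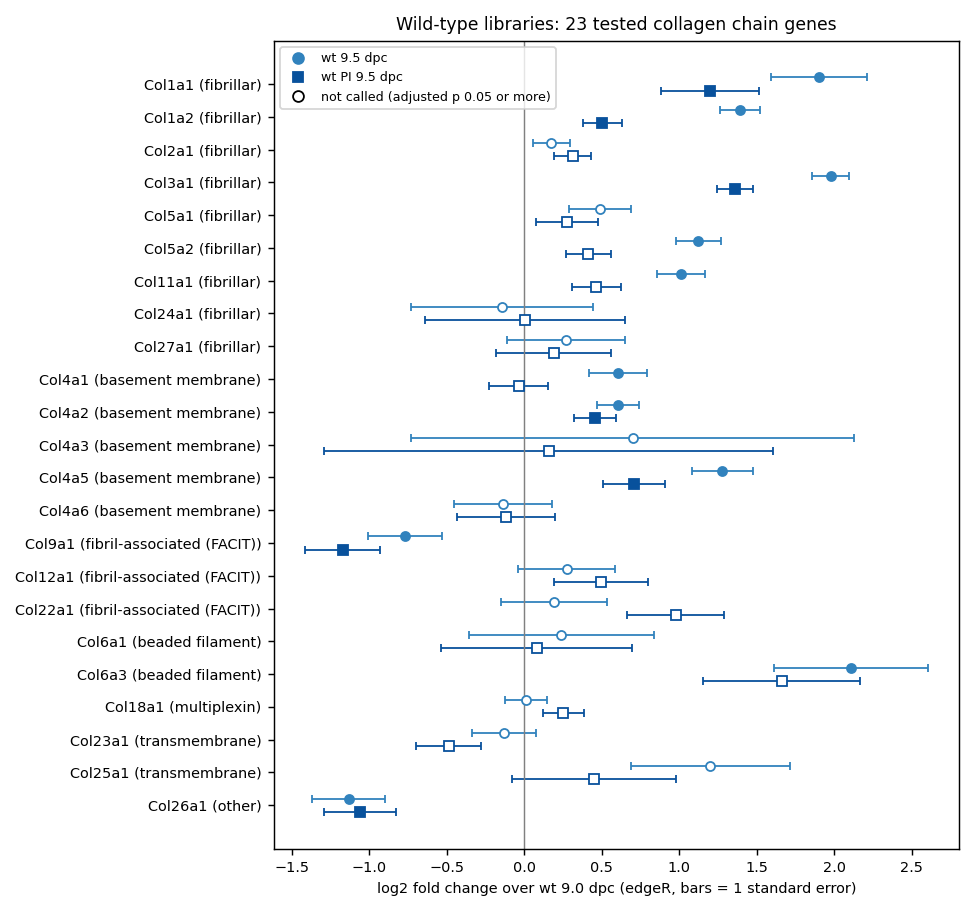
Log2 fold change over wt 9.0 dpc (x axis) of the 23 collagen chain genes tested in wt libraries, in wt 9.5 dpc (circles) and wt PI 9.5 dpc (squares), with bars of 1 standard error and filled symbols for genes called by edgeR. Col6a3, Col3a1 and Col1a1 lie farthest to the right at 9.5 dpc, and Col26a1 and Col9a1 lie below 0 in both groups.

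Of these 11 genes, 4 had a start-site window free of annotated exons: 3 that rose between the stages (Col3a1, Col11a1, Col6a3) and 1 that fell (Col9a1). Their upstream sequences are shown. They are the 150 bases upstream of the RefSeq start site in GRCm38.p6, written 5′ to 3′ on the gene's strand, with capitals marking matches on either strand to the TATA string TATAAA, the CCAAT box string CCAAT and the GC box string GGGCGG. Col3a1 lies at chr1:45311388-45311537 (plus strand), Col11a1 at chr3:114030390-114030539 (plus), Col6a3 at chr1:90843972-90844121 (minus) and Col9a1 at chr1:24177460-24177609 (plus).
Col3a1: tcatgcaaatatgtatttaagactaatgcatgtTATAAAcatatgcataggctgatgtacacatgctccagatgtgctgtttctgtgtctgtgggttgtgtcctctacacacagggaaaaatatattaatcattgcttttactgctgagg
Col11a1: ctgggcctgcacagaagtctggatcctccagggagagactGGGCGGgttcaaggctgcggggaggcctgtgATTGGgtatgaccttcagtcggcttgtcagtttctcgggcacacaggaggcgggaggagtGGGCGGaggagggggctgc
Col6a3: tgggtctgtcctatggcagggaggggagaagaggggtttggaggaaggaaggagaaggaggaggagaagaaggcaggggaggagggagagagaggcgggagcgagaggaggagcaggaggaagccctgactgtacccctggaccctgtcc
Col9a1: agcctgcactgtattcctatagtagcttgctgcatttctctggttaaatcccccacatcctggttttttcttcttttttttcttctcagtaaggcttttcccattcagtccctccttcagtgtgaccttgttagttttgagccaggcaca

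The Col3a1 stretch holds a TATAAA and is rich in A and T, the Col11a1 stretch holds a CCAAT on the reverse strand (seen as ATTGG) and GGGCGG at 2 places, and the stretches printed for Col6a3 and Col9a1 hold none of the 3 strings. A second Col9a1 start site, at chr1:24195203, had a CCAAT upstream, but its window overlaps an exon and is not shown. Windows were found for 35 of the 44 genes, 38 windows in all, and 250 upstream bases of each were searched on both strands. TATAAA occurred in 13.2% of the collagen windows and 12.4% of all 32851 windows, CCAAT in 34.2% and 33.8%, and GGGCGG in 57.9% and 32.7%. A match of letters describes the window and does not show a bound site.

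The second question was how wt embryos marked PI differed from the unmarked ones at 9.5 dpc. In PI, 4 fibrillar chains and Col4a1 were lower: none of the 23 tested collagen genes rose, 5 fell and 18 did not pass, where 28.0% of all genes changed, 12.4% downward, and the median log2 fold change was -0.35 against 0.01 over all genes. Col3a1 was at 239.6 and 208.5 CPM in PI (log2 fold change -0.62, SE 0.11, against wt 9.5 dpc). Col1a2 was at 41.0 and 50.5 CPM (-0.89, SE 0.12), Col5a2 at 25.5 and 28.5 CPM (-0.71, SE 0.14), Col11a1 at 38.6 and 31.9 CPM (-0.55, SE 0.15) and Col4a1 at 28.3 and 21.8 CPM (-0.64, SE 0.19). In these 5 genes, picked by the test on the same libraries, all PI libraries lay below all unmarked 9.5 dpc libraries. With the lot number as a block, 8 genes were called, against 38.9% of all genes (17.9% lower): Col1a1, at 14.8 and 10.4 CPM in PI (-0.66, SE 0.16), and Col4a5, at 26.5 and 25.7 CPM (-0.55, SE 0.15), joined those that fell, and Col22a1, a FACIT chain of tissue junctions at 5.52 and 5.48 CPM (0.79, SE 0.31), rose. The count was lower without either wt PI replicate and with DESeq2. With the spread of all 6 groups it was 0, where 13 of 18837 genes were called.

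Set against wt 9.0 dpc, the PI libraries had 5 collagen genes higher and 2 lower, where 15.6% of all genes changed, 8.60% upward and 6.99% downward. Higher were Col3a1 (log2 fold change 1.36, SE 0.12), Col1a1 (1.20, SE 0.32), Col4a5 (0.71, SE 0.20), Col1a2 (0.50, SE 0.13) and Col4a2, at 29.0 and 26.8 CPM in PI (0.46, SE 0.13). Lower were Col9a1, at 4.14 and 5.27 CPM (-1.17, SE 0.24), and Col26a1, at 6.21 and 5.16 CPM (-1.06, SE 0.23). Of the 9 genes higher in wt 9.5 than wt 9.0 dpc, 8 had a PI mean between the means of those groups, and the other, Col4a1, had 25.1 ± 4.55 CPM in PI and 25.9 ± 2.06 CPM at 9.0 dpc (SD, n = 2). The 3 wt comparisons share libraries, and the 9 genes were picked for being high in wt 9.5 dpc, so this order is a description. The matching share over all genes is not given here. The block raised the count to 12, against 28.5% of all genes (15.3% higher, 13.1% lower), adding Col2a1, Col5a2, Col11a1, Col22a1 and Col6a3 as higher. The count fell without any one wt PI or wt 9.0 dpc replicate and with DESeq2. With the spread of all 6 groups it was 0, where 2 of 18837 genes were called.

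Genes that make and modify collagen gave other counts than the chains. Of 23 tested genes for biosynthesis, 2 rose and 4 fell from wt 9.0 to 9.5 dpc, and 7 rose and 2 fell in PI against wt 9.5 dpc. Serpinh1, the collagen chaperone HSP47, had a log2 fold change of -0.01 (SE 0.11) between the stages and of -0.64 (SE 0.11) in PI. P4hb, a prolyl 4-hydroxylase subunit, fell by 0.44 (SE 0.11) on the log2 scale between the stages and was higher by 0.65 (SE 0.11) in PI. Of 10 tested genes for processing and cross-linking, 1 rose and 1 fell between the stages, the latter being Pxdn, which cross-links type IV collagen (-0.49, SE 0.10). Among 9 fibril regulators, 4 rose and 1 fell, with the collagen-binding Sparc at 1.08 (SE 0.10). Among 14 basement membrane partners, 4 rose and 2 fell, one of the latter the laminin chain Lamb1 (-1.05, SE 0.11). Of 8 collagen receptors, 2 rose and none fell, and of 7 genes of collagen breakdown, none rose and 1 fell.

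Marker genes of cell types moved beside the collagens. Summed over 15 mesenchyme markers the level was 186 to 214 CPM at wt 9.0 dpc, 146 to 165 at 9.5 dpc and 118 to 122 in PI, while the fibrillar collagens summed to 221 to 227, 577.5 to 620.0 and 388 to 419 CPM. Of 11 mesenchyme markers tested, 1 (Prrx1, 0.47, SE 0.13) rose and 5 fell between the stages. Summed over 14 neural progenitor markers the level went from 852 and 856 CPM to 3472 and 2991 CPM, and in PI was 1551 and 1466 CPM, with none at 0 in any library, and 10 of 13 tested rose between the stages. Their largest contributors were Vim, at 259 and 269.8 and then 1378 and 1104 CPM, and Fabp7, at 111 and 99.1 and then 1111 and 1049 CPM. Vim is not restricted to neural cells, and the median log2 fold change over the 13 tested was 1.09. The 13 surface ectoderm markers went from 281 and 283 CPM to 54.7 and 61.0 CPM, with 7 of 9 tested lower. Prl8a2, a prolactin gene of the decidua, was at 177 and 31.9 CPM in wt 9.5 dpc and at 0.00 to 2.37 CPM in the other 9 libraries. The endothelial sum was split by lot rather than stage, through Pecam1. Notochord and cartilage markers went from 301 and 329 CPM to 185 and 186 CPM, with 1 higher and 4 lower of 7 tested. In the yolk-sac endoderm list (46.0 to 67.3 CPM in the 4 libraries of wt 9.0 and 9.5 dpc), 1 of 6 tested fell, and none of 4 tested trophoblast and decidua markers passed the test, although their list summed to 13.8 and 15.9 CPM at 9.0 dpc and 191 and 40.8 CPM at 9.5 dpc. The part of these cell types in the collagen changes was not tested.

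**Figure D3:**
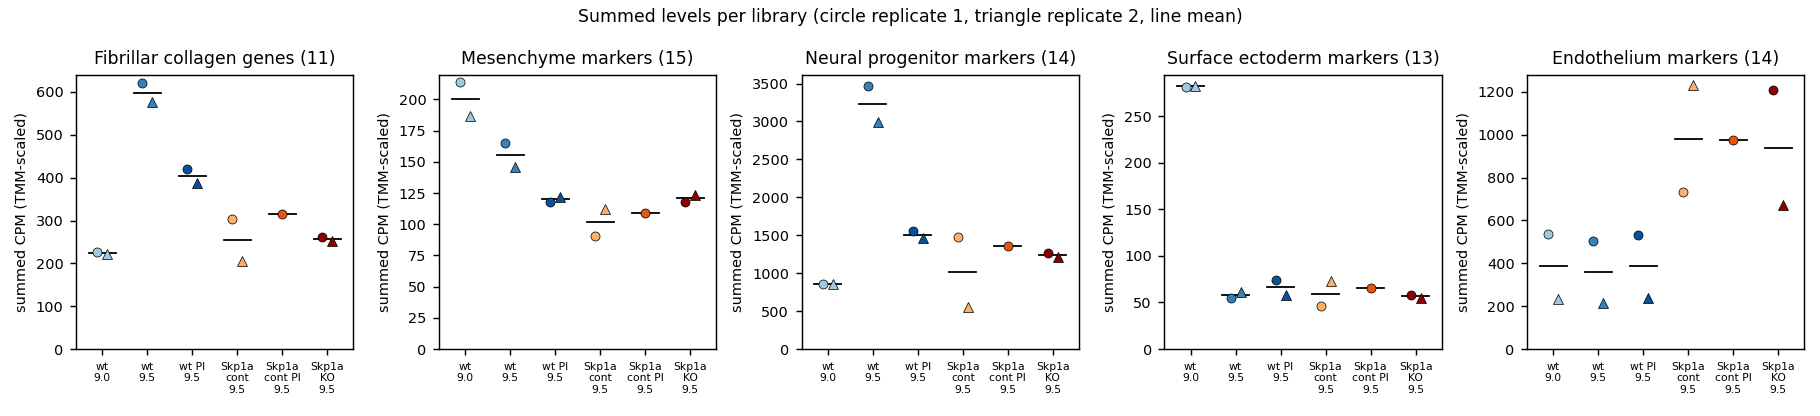
Summed TMM-scaled CPM (y axes, linear, from 0) of 11 fibrillar collagen genes and of 4 marker lists in each library by group (x axes), with circles for replicate 1, triangles for replicate 2 and lines for means. The fibrillar sum and the neural progenitor sum are highest in wt 9.5 dpc, the mesenchyme and surface ectoderm sums in wt 9.0 dpc, and the endothelial sum separates the replicates within each wt group.

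The third question was how libraries with a Skp1a label differed from wt at the same age. Of the 44 chains, 5 were called lower in both the Skp1aKO- and the Skp1acont-labelled libraries: Col3a1, Col1a2, Col5a2, Col11a1 and Col4a5. Col18a1, Col4a1 and Col2a1, also among the higher wt chains, were not called. Higher were 11 collagen genes in those labelled Skp1aKO and 15 in those labelled Skp1acont. All 44 genes were tested. In all, 36.4% of 18837 genes were called in the first comparison (17.6% higher, 18.7% lower) and 36.4% in the second (19.3% higher, 17.1% lower), and both comparisons share the wt 9.5 dpc libraries. The median collagen log2 fold change was 1.37 (all genes 0.24) for Skp1aKO and 1.72 (all genes 0.34) for Skp1acont, and stayed the same with genes absent in wt set at their bounds.

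Col3a1 was at 86.3 and 87.9 CPM in libraries labelled Skp1aKO, 94.2 and 49.5 CPM in Skp1acont and 109.97 CPM in Skp1acont PI, all below each wt 9.5 dpc and wt PI library. The wt 9.0 dpc libraries had 90.6 and 86.6 CPM. Its log2 fold change against wt 9.5 dpc was -1.97 (SE 0.39, edgeR adjusted p = 0.00872) for Skp1aKO and -2.24 (SE 0.40, adjusted p = 0.00832) for Skp1acont. Col5a2 had 11.3 CPM in each Skp1aKO library, 13.9 and 22.04 in Skp1acont and 16.0 in Skp1acont PI (-1.97, SE 0.29, and -1.31, SE 0.28). Col4a5 had 11.99 and 12.8 CPM, 11.6 and 5.74 CPM, and 10.6 CPM in the same order (-1.64, SE 0.35, and -2.13, SE 0.36). Col1a2 had 36.6 and 32.2 CPM, 50.7 and 20.2 CPM, and 48.9 CPM (-1.30, SE 0.39, and -1.25, SE 0.39). Col11a1 had 26.1 and 30.5 CPM, 22.6 and 21.7 CPM, and 25.8 CPM (-0.84, SE 0.26, and -1.19, SE 0.27). In all 5 genes no library with a Skp1a label reached a wt 9.5 dpc library. Without Skp1acont replicate 2 the Skp1acont log2 fold changes were -1.72 for Col3a1, -1.54 for Col5a2, -1.61 for Col4a5, -0.62 for Col1a2 and -1.05 for Col11a1, and all 5 were still called. Col9a1, lower at 9.5 than 9.0 dpc in wt, was at 5.35 and 5.52 CPM in Skp1aKO, 3.80 and 3.02 CPM in Skp1acont and 5.67 CPM in Skp1acont PI and was not called. Col1a1, the partner chain of Col1a2, did not pass the test: it had 32.1 and 22.1 CPM in Skp1aKO, 32.1 and 23.8 CPM in Skp1acont and 27.0 CPM in Skp1acont PI against 24.6 and 16.1 CPM (0.43, SE 0.34, adjusted p = 0.312, and 0.48, SE 0.34, adjusted p = 0.261, edgeR). Without Skp1acont replicate 2 it was called higher in Skp1acont (0.83, SE 0.27), as were Col2a1 (0.80, SE 0.22) and Col18a1 (0.73, SE 0.21).

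Most of the genes called higher lay near or under the background rate of their libraries. Of the 11 higher in Skp1aKO-labelled libraries, 8 were under 2 times that rate in both (Col5a3, Col4a4, Col14a1, Col16a1, Col6a4, Col6a5, Col6a6 and Col7a1). Of the 15 higher in Skp1acont, 11 were (Col5a3, Col11a2, Col4a4, Col14a1, Col6a2, Col6a4, Col6a5, Col6a6, Col7a1, Col8a1 and Col25a1), and Col15a1, also called there, was between 0.868 and 4.27 times the rate. Col5a3 and Col6a5 had 0 counts in both wt 9.5 dpc libraries, so they were at least 5.84-fold and 9.12-fold higher in Skp1aKO, against 3 counts over the group. Col4a4, with 3 wt counts, had a ratio of 16.8 (95% counting interval 5.39 to 84.4).

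Col22a1, Col26a1 and Col27a1 stood above that rate in every library. Col22a1 was at 3.30 and 3.11 CPM in wt 9.5 dpc, 17.6 and 19.9 in Skp1aKO, 8.17 and 21.7 in Skp1acont and 10.2 in Skp1acont PI (log2 fold change 2.54, SE 0.46, for Skp1aKO and 2.20, SE 0.46, for Skp1acont). It was 2.40 to 4.34 times the background rate in the Skp1a-labelled libraries and 1.84 to 3.82 times in wt, so its multiple of the background overlapped. Col26a1 was at 31.3 and 28.3 CPM in Skp1aKO, 11.02 and 36.8 in Skp1acont and 12.7 in Skp1acont PI (2.50, SE 0.50, and 2.17, SE 0.50), which exceeded wt 9.5 dpc but, in Skp1acont replicate 1, not wt 9.0 dpc. It was 5.76 to 7.20 times the background rate in Skp1aKO and 4.57 to 5.66 times in Skp1acont. The multiples in wt overlapped these, and those in wt 9.0 dpc were higher. Col27a1, a fibrillar chain of cartilage, was at 9.54 and 4.33 CPM in wt 9.5 dpc, 17.1 and 17.4 in Skp1aKO, 15.8 and 29.0 in Skp1acont and 17.0 in Skp1acont PI (1.40, SE 0.42, and 1.76, SE 0.42). Its multiple of the background overlapped too, at 2.23 to 5.13 times in the Skp1a-labelled libraries and 2.25 to 5.40 times in wt. With the background subtracted Col27a1 was not called for Skp1aKO (1.72, SE 0.65, edgeR adjusted p = 0.0833). Col25a1, a transmembrane collagen of neurons and muscle, was at 4.77 and 2.84 CPM in wt 9.5 dpc, 10.7 and 7.95 in Skp1aKO, 6.08 and 22.9 in Skp1acont and 4.30 in Skp1acont PI. It was called for Skp1acont (1.96, SE 0.63), whose 2 libraries differed most, and did not pass for Skp1aKO or between the 2 labels. Without Skp1acont replicate 2 its call ended (0.90, SE 0.46, edgeR adjusted p = 0.119), as did those of Col11a2, Col6a2, Col6a4, Col6a6 and Col8a1, and the Skp1acont values of Col22a1, Col26a1 and Col27a1 were 1.47, 1.16 and 1.45, all still called.

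After subtracting each library's background rate, 25 collagen genes could be tested and 6 were called in each comparison. For Skp1aKO these were Col4a1, Col22a1 and Col26a1 higher and Col3a1, Col5a2 and Col12a1 lower (25.0% of all genes called, 10.5% higher and 14.6% lower), and for Skp1acont Col27a1, Col22a1 and Col26a1 higher and Col3a1, Col11a1 and Col12a1 lower (27.3%, with 12.8% higher and 14.6% lower). Col3a1 was then at -1.38 (SE 0.18) and -1.77 (SE 0.18), and Col22a1 at 3.46 (SE 0.74) and 3.16 (SE 0.74). Col12a1 had 27 and 30 counts in Skp1aKO and 18 and 36 in Skp1acont, below the background rate, against 13 and 38 in wt, so its reversed sign follows from the subtraction. With library totals in place of TMM the median of all genes moved to 1.04 and 1.08. For Skp1aKO 20 collagen genes were then higher and 2 lower (Col3a1, Col5a2), with 8224 of 18837 genes called, 6829 of them higher. For Skp1acont 24 were higher and 2 lower (Col3a1, Col4a5), with 8343 of all genes called, 7097 of them higher. The other lower calls ended. Over all libraries, 16 collagen genes had all 5 values with a Skp1a label above all 6 wt values and none had them below (21.3% of all genes higher and 21.3% lower), and 25 were higher by library totals.

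**Figure D4:**
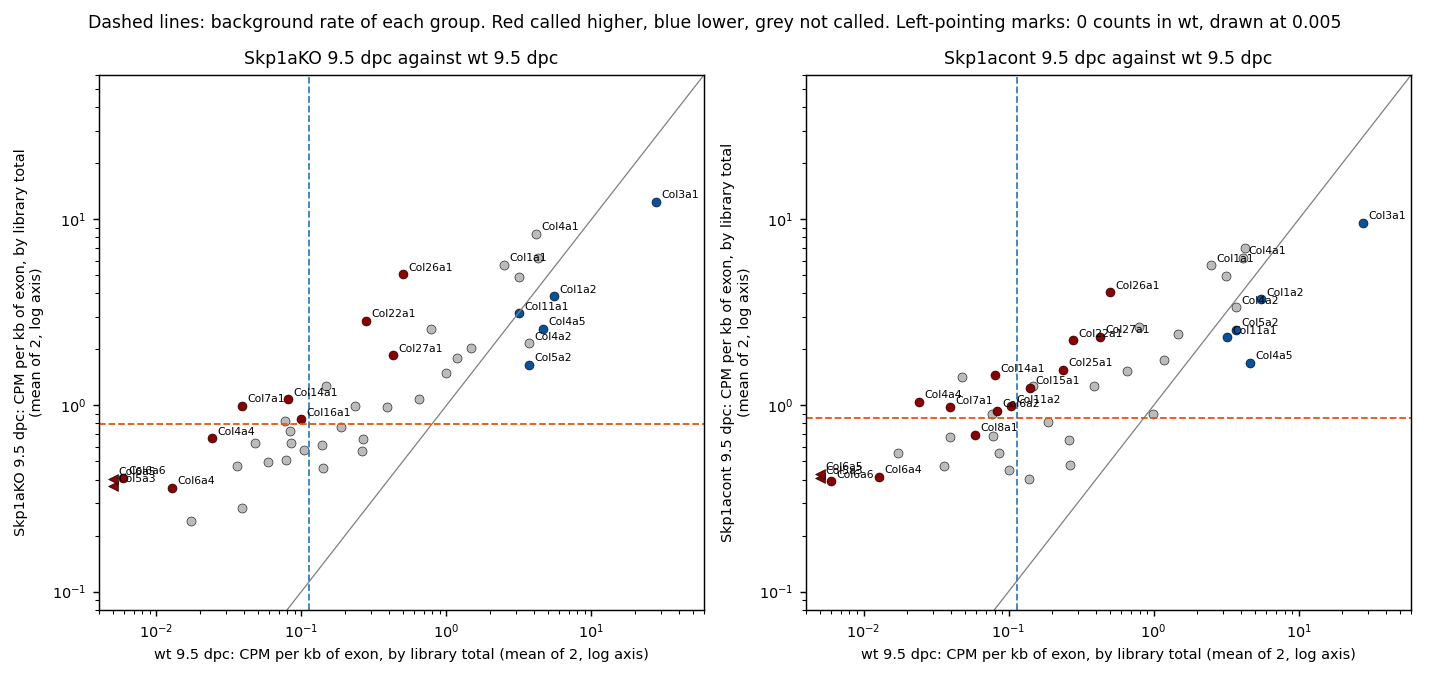
Mean level, in CPM by library total per kb of exon, of the 44 collagen chain genes in Skp1aKO (left) and Skp1acont (right) against wt 9.5 dpc, both axes logarithmic, with each group's background rate dashed, equality as a line and genes coloured by the edgeR call on TMM-scaled counts. Most red points lie near or under the dashed horizontal line, Col22a1, Col26a1 and Col27a1 above it, and Col3a1 at the far right.

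The number of calls moved when single libraries were left out. The Skp1aKO count of 16 fell to 0 without Skp1aKO replicate 1 or wt 9.5 dpc replicate 2, to 3 without Skp1aKO replicate 2 and to 4 without wt 9.5 dpc replicate 1, and rose to 29 (67.9% of all genes, 36.1% higher and 31.8% lower) when Skp1acont replicate 2, not itself compared, left the shared spread. The Skp1acont count of 20 was 17 without its replicate 2 (39.1% of all genes, 19.9% higher and 19.2% lower), 35 without its replicate 1, 2 without wt 9.5 dpc replicate 1 and 0 without wt 9.5 dpc replicate 2. Over all alternatives no called gene of these 2 comparisons changed sign. For Skp1aKO, Col22a1 ranged from 2.41 to 3.46, Col26a1 from 2.35 to 3.31 and Col3a1 from -2.09 to -1.16, with edgeR or DESeq2 adjusted p at most 0.0624, 0.0605 and 0.0796.

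The fourth question was how the libraries labelled Skp1aKO differed from those labelled Skp1acont. No collagen gene of 44 and no gene of 18837 passed the edgeR test (0.00% called). At an unadjusted p under 0.05 there were 2 collagen genes, Col5a2 (-0.66, SE 0.29) and Col15a1 (-1.52, SE 0.55), and 1308 genes in all, and DESeq2 called 0 collagen genes and 96 genes in all (0.510%). The result rested on which control library was used. Without Skp1acont replicate 2, 10 collagen genes were called (27.3% of all genes, 9.79% higher and 17.5% lower): Col24a1, Col9a3, Col19a1, Col22a1, Col7a1 and Col26a1 higher and Col2a1, Col4a2, Col15a1 and Col18a1 lower. Without replicate 1, 13 were called (31.3% of all genes, 21.2% higher and 10.1% lower), with Col1a2, Col2a1, Col3a1, Col4a1, Col4a2, Col4a5 and Col18a1 the 7 higher ones and 6 others lower.

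Col2a1, Col4a2 and Col18a1 took opposite directions in those 2 fits. Col2a1 had 35.7 and 29.8 CPM in Skp1aKO, 58.1 and 13.3 CPM in Skp1acont and 50.3 CPM in Skp1acont PI, and its log2 fold change was -0.81 (SE 0.22) without replicate 2 and 1.28 (SE 0.20) without replicate 1. Col18a1 had 32.96 and 29.8 CPM, 57.4 and 18.7 CPM, and 54.01 CPM (-0.85, SE 0.21, and 0.72, SE 0.20). The Skp1aKO libraries lay between the 2 control libraries in both genes. Background moved in the same order, from 3.04 times the lowest library in Skp1acont replicate 1 to 7.03 and 9.18 in Skp1aKO and 14.4 in Skp1acont replicate 2, and its part in these opposite signs was not tested. The effect of PI in Skp1acont could not be compared with that in wt beyond 1 library: the test of the difference called none of 44 collagen genes and none of 18837 genes (smallest adjusted p 0.770 and 0.332, edgeR; unadjusted p under 0.05 for 1 and 1198; not run in DESeq2).

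The partner lists and markers in these comparisons gave no call between Skp1aKO and Skp1acont. Against wt 9.5 dpc, 5 of 24 biosynthesis genes rose and 3 fell for Skp1aKO, and 4 rose and 3 fell for Skp1acont. Processing and cross-linking genes gave 3 higher and 0 lower of 14 in each, fibril regulators 2 and 2, then 2 and 1, of 14, and basement membrane partners 6 and 4, then 6 and 2, of 17. Of 10 receptors, 1 and then 2 rose, and of 9 breakdown genes, 4 rose and 2 fell, then 1 rose. Fibronectin (Fn1) was lower in Skp1aKO (-1.54, SE 0.51), and Sparc was at 60.6 and 48.1 CPM in Skp1aKO, 174 and 21.4 CPM in Skp1acont and 124 CPM in Skp1acont PI. The mesenchyme sum was 90.6 to 123 CPM in the Skp1a-labelled libraries, with 3 higher and 2 lower of 12, then 2 and 3. The neural progenitor sum was 1272 and 1219 CPM in Skp1aKO, 1482 and 551 in Skp1acont and 1356 in Skp1acont PI (3 higher and 2 lower of 14, then 1 and 4), against 3472 and 2991 in wt 9.5 dpc. Endothelial markers gave 1 higher and 5 lower of 13, then 2 and 1, notochord and cartilage markers 2 and 1, then 1 and 3, of 12, and surface ectoderm markers 1 and 1 of 13 in each. Endoderm markers gave 1 and 1, then 1 and 2, of 8, and trophoblast and decidua markers 1 and 2, then 1 and 1, of 5. The part of these cell types was not tested.

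The 2 main basement membrane chains differed in their balance between libraries. Col4a1 and Col4a2 lie head to head on chromosome 8 of GRCm38, Col4a1 at chr8:11198423-11312826 on the minus strand and Col4a2 at chr8:11312805-11449287 on the plus strand, with 22 bases in common at their starts, so unstranded counting could not assign reads there. Col4a1 was at 43.0 and 45.7 CPM in Skp1aKO, 41.6 and 28.7 in Skp1acont and 37.6 in Skp1acont PI. Col4a2 was at 10.1 and 10.4 CPM, 31.2 and 3.92 CPM, and 32.7 CPM in the same order. Col4a1 counts made up 81.0% and 81.5% of the pair's sum in Skp1aKO (201 and 207 counts against 47 and 47), with exact 95% binomial intervals of 75.6% to 85.7% and 76.2% to 86.1%. The 6 wt libraries gave 44.9% to 58.5%, Skp1acont replicate 1 gave 57.2% (52.1% to 62.2%) and Skp1acont PI 53.5% (48.2% to 58.7%), whereas Skp1acont replicate 2 gave 88.0% (95 against 13 counts, 80.3% to 93.4%). The share was thus high in both Skp1aKO libraries and in 1 of the control-labelled libraries. Among the Skp1a-labelled libraries, these were also the ones with the most background. As a multiple of the lowest library, Skp1acont replicate 2 had 14.4, Skp1aKO replicate 2 had 9.18 and Skp1aKO replicate 1 had 7.03. Skp1acont PI had 3.22 and Skp1acont replicate 1 had 3.04. Beyond a subtraction, whether background contributed to the Col4a1 share was not tested. Subtracting the background left 85.6% and 86.5% in Skp1aKO. In Skp1acont replicate 2 the Col4a2 count was under the 21.6 counts the background rate gives for its length.

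As a test of the gene, Col4a2 in Skp1aKO missed the threshold against wt 9.5 dpc (log2 fold change -1.58, SE 0.64, edgeR adjusted p = 0.0752). It passed when Skp1acont replicate 2 left the shared spread (-1.44, SE 0.20, adjusted p = 1.12e-06). Against Skp1acont it was lower without control replicate 2 (-1.59, SE 0.23, adjusted p = 2.16e-05) and higher without control replicate 1 (1.35, SE 0.27, adjusted p = 0.00278). Col4a1 did not pass against wt 9.5 dpc (0.20, SE 0.29).

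The 2 type I chains also shifted relative to each other. Col1a1 made up 12.1% to 26.5% of the Col1a1 and Col1a2 counts in the wt libraries and 35.6% to 54.1% in the 5 libraries with a Skp1a label, without overlap. With the background subtracted the ranges were 10.4% to 26.1% and 35.6% to 68.5%. In each wt group and in Skp1aKO (46.7% and 40.7%) the share was higher in replicate 1 than in replicate 2. In Skp1acont it was lower in replicate 1 (38.8% and 54.1%). Among the Skp1a-labelled libraries it was lowest in Skp1acont PI and Skp1acont replicate 1, which also had the least background. The part of the background in this share was not tested.

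**Figure D5:**
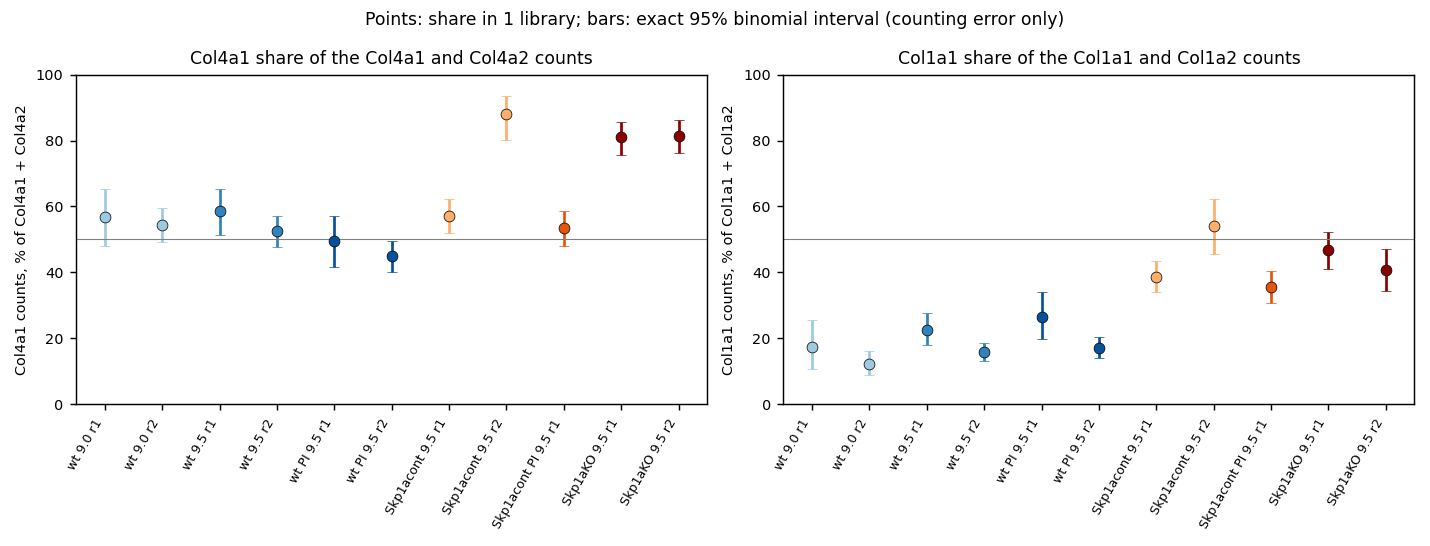
Share of Col4a1 in the counts of Col4a1 and Col4a2 (left) and of Col1a1 in the counts of Col1a1 and Col1a2 (right), in percent (y axes, 0 to 100), for each of the 11 libraries (x axes), with exact 95% binomial intervals as bars. The Col4a1 share is above 80% in both Skp1aKO libraries and in Skp1acont replicate 2 and under 60% elsewhere, and the Col1a1 share is higher in all 5 Skp1a-labelled libraries than in the 6 wt libraries.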

How the data were processed

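The deposited file is a table of raw read counts per gene made by the authors, with 1 column for each of 11 libraries of polyA RNA. GRCm38 (mm10) and Trim Galore 0.6.7 are named in the submitters' processing notes, while no source used here gives the aligner, counter or strandedness. A second Skp1acont PI sample is labelled and was not analysed here. The columns were matched to samples by title.

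Counts were fitted with edgeR 4.0.16 in R 4.3.3 (robust quasi-likelihood F test, TMM, filterByExpr, two-sided, Benjamini-Hochberg over all genes tested, called at adjusted p under 0.05). Comparisons between wt groups used the 6 wt libraries (13126 genes) and the others all 11 (18837 genes), with group as the only term. Standard errors are the log2 fold change over the root of F. Lengths, positions and the chemoreceptor set come from GENCODE M21, to which all 44 members matched, and start-site windows come from RefSeq on GRCm38.p6. DESeq2 1.42.0, other scalings and filters, a lot block, the background subtraction, 2-group fits and each replicate left out were alternatives. The fits were tested on simulated data. The members and lists were chosen with earlier results of these data known. Values per library are given for members called in any comparison with a mean of at least 5 CPM (13 of 26 called). Lists show up to 3 members of the highest mean level. Genes named outside these rules (Col2a1, Col18a1, Col23a1, Col4a3, Col4a6, Col6a3, Col12a1, Fabp7, Vim, Prl8a2) were chosen after their values were seen.

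Same-numbered wt libraries deviated together from their group means (r across 18837 genes 0.343, 0.305 and 0.297). The labels do not state such a pairing. The reported wt values come from fits without the lot, and fits with the lot as a block were alternatives. For pairs with a Skp1a label r was -0.01 to 0.18, and the fit with the lot block was an alternative there too. Intervals on counts cover counting error only.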

Additional observations from a re-analysis of the deposited data

How the results depend on the processing

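In the fit with a replicate block for the lot, the counts of collagen genes called became 8 (1 higher, 7 lower) in wt PI against wt 9.5 dpc and 12 in wt PI against wt 9.0 dpc. The other 4 comparisons kept within 1.5 times. Among them were 18 against 16 in Skp1aKO against wt (7420 of 18837 genes called) and 23 against 20 in Skp1acont against wt (7251 called). DESeq2 gave 6 in wt 9.5 against 9.0 dpc, 3 in wt PI against wt 9.5 dpc and 1 in wt PI against wt 9.0 dpc, and the fit of all 6 groups gave 2, 0 and 0. Library totals gave 12 in wt PI against wt 9.0 dpc. Leaving out single replicates gave 7 to 10, 2 to 5 and 1 to 2 in these 3 comparisons, 0 to 13 in Skp1aKO against Skp1acont, 0 to 4 in Skp1aKO against wt and 0 to 35 in Skp1acont against wt. Where an arm was left with 1 library, that library was assumed to vary like the others. Fits of only the 2 groups compared gave 25 in Skp1aKO against wt and 0 in Skp1acont against wt. Without Skp1acont replicate 2 the counts were 10 in Skp1aKO against Skp1acont, 29 in Skp1aKO against wt and 17 in Skp1acont against wt, and with the background subtracted 6 in each comparison with wt. Signs turned against the reported value, counting genes called in that alternative, in Skp1aKO against Skp1acont, for Col1a2 (0.75), Col2a1 (1.28), Col4a2 (1.35) and Col18a1 (0.72) without control replicate 1 and for Col19a1 (2.07) without replicate 2; with the other one left out they were -0.54, -0.81, -1.59, -0.85 and -0.98. In Skp1acont against wt they did so for Col18a1 (-0.97 without replicate 1, 0.73 without replicate 2) and Col2a1 (-1.42 and 0.80). Col4a2 (-2.92 and 0.15), Col12a1 (1.15 and -0.43) and Col9a3 (3.19 and -0.17) also had opposite signs in these 2 fits, called in the first, as had some genes called in neither. Signs also turned, with the background subtracted, for Col12a1 (-6.65 in both comparisons with wt), whose counts lay under it. For the rest the cause was not tested. With 2 libraries a group and 3 counts worth up to 1.10 CPM, the 20 genes under 2 CPM in wt give no firm level there.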

Other observations

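Col4a3, a type IV chain of kidney and lung basement membranes, differed by lot number within every group of 2 libraries. It was at 9.34, 16.9 and 10.3 CPM in replicate 1 of wt 9.0, wt 9.5 and wt PI and at 2.96, 2.71 and 3.23 CPM in replicate 2. In Skp1acont it was at 22.99 and 16.6 CPM and in Skp1aKO at 29.8 and 8.61 CPM, above the wt libraries of the same lot. In replicate 2 these were 55 and 39 counts, where the background rate gives 32.5 and 27.1 for its length. Replicate 2 of wt 9.5 dpc had 20 counts against 10.9. With the background subtracted it was not called for Skp1acont (1.34, SE 1.44, edgeR adjusted p = 0.493) or Skp1aKO (1.44, SE 1.43, adjusted p = 0.461). With the lot as a block it was called higher in Skp1acont than in wt 9.5 dpc (1.47, SE 0.45, edgeR adjusted p = 0.0332), but not without the block (adjusted p = 0.304) or for Skp1aKO (1.15, SE 0.45, adjusted p = 0.0632). The log2 ratio of replicate 1 over 2 (0.5 CPM added) was 0.46 to 2.44 over the 5 groups, and 0.42 to 0.60 for Col1a1, and no other collagen gene had a ratio past 0.3 with the same sign in all 5. Pecam1, an endothelial adhesion molecule, was at 419, 382 and 403 CPM in replicate 1 and 105, 91.7 and 111 CPM in replicate 2 of the wt groups. Its order in Skp1acont was the opposite, at 567 and 1161 CPM. Why these genes differed by lot was not tested.

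Over the 14 collagen genes of at least 10 CPM, log2 fold changes went with the GC content of the longest transcript by r = -0.52 in wt 9.5 against 9.0 dpc, 0.68 in wt PI against wt 9.5 dpc, 0.43 in Skp1aKO against wt and 0.52 in Skp1acont against wt. Over all genes with a GC value these correlations were -0.10, 0.11, 0.10 and 0.14. They are across genes that share libraries and base composition and are given as a description. The part of GC content in the collagen changes was not tested.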
